A study of Mus musculus with 6 samples.

Results

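Granins are acidic proteins stored in the dense-core granules of endocrine and neuroendocrine cells, and prohormone processing enzymes cut and trim the peptide precursors packed beside them. Cargo is sorted in the trans-Golgi network, cut at pairs of basic residues by proprotein convertases, trimmed by a carboxypeptidase and in some peptides amidated before release on stimulation. Pinealocytes, the melatonin-forming cells of the pineal gland, carry such granules and synaptic-like vesicles although their main product is not a peptide. The set described here was given by name and holds 10 genes, of which 9 had a probe set that the array annotation assigns to that gene alone. These were the granins Chga, Chgb, Scg2, Scg3, Scg5 and Vgf and the enzymes Pcsk1, Cpe and Pam. No probe set names Pcsk2, the partner convertase, alone, so its signal was not analysed here and only its promoter is described. All 9 passed the filter on dim probe sets, out of 12797 genes tested and 18193 named on the array.

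Whole pineal glands were taken by day at postnatal day 0 from mice of strain 129 kept under 12 h of light a day. The wildtype group had 3 pools, each of 3 glands, and the group homozygous for a Neurod1 knockout also had 3 pools of 3 glands, with 1 Affymetrix array a pool. Neurod1 codes for a proneural factor of the basic helix-loop-helix family, which acts in neurons, in endocrine cells of gut and pancreas, and in photoreceptors. The labels call the animals transgenic knockouts and give neither the targeted part of the gene nor a driver or cell type. A pool mixes 3 animals, and pools of the same number in both genotypes carry a shared date. The question put to the set was whether its transcripts differ at birth in glands without this factor.

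Array medians of the deposited signal lay between 132 and 184. The target followed the labels, with a Neurod1 signal of 8616 ± 959 (SD, n = 3) in wildtype pools against 346 ± 204 in the knockout. Single pools stood apart in other ways. In knockout pool 1 the median log2 level of 107 ribosomal and respiratory chain genes, taken relative to their mean over 6 arrays, was 1.24, against −0.70 to 0.10 in the other pools. Ttr, abundant in choroid plexus, was at 898 in wildtype pool 1 and 685 in knockout pool 3 but between 38903 and 87464 elsewhere. The male germ cell gene Crisp2 was at 17677 and 1700.1 in the knockout and wildtype pools numbered 2, against at most 11.2 in the rest. All 14 pinealocyte markers passed the filter, and their summed signal ran from 39958 to 62938 in wildtype and from 27617 to 48432 in knockout. Their median log2 difference was −0.42, with 11 of 14 lower and 0 called by limma (1 at an unadjusted p under 0.05), and it was −0.47 with quantile normalization and −0.56 with each array centred on its median.

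None of the 9 genes passed the test between genotypes in the fit across all genes, where their adjusted p lay between 0.998 and 0.999. At an adjusted p under 0.05 in limma 0 of 9 were lower and 0 of 9 higher, beside 0.00781% of all genes lower (Neurod1 alone) and 0% higher. Before adjustment 0 of 9 had a p under 0.05, beside 3.34% of all genes, and with pool number as a block again 0 of 9, beside 6.24%. The groups overlapped for every one of the 9. Of all genes tested 10.1% had no overlap, 4.33% with every knockout pool lower and 5.77% with every knockout pool higher. Mean log2 levels were lower in knockout for Chga, Scg2, Scg3, Scg5 and Vgf (5 of 9, beside 46.8% of all genes). They were higher for Chgb, Pcsk1, Cpe and Pam (4 of 9, beside 53.2%). Counts of lower and higher means in the lists below are also of mean log2 levels. The median log2 difference over the 9 was −0.11, beside 0.028 over all genes tested. With each array centred on its median 8 of 9 were lower, and the median was −0.25 beside −0.11 over all genes. Uncentred, the median of the 9 was −0.58 without wildtype pool 3 and −0.59 without knockout pool 1, beside 0.011 and −0.017 over all genes. Leaving out any other single pool gave −0.15 to −0.022. In whole glands, fewer granule-bearing cells and less RNA per cell cannot be told apart.

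Signals of the granins Chga, Chgb, Scg2, Scg3 and Scg5 also had a shared order by pool number, which Vgf did not have. In each of these 5 granins pool 1 had the highest and pool 3 the lowest signal in wildtype and again in knockout. This order was found in 14.8% of all genes tested. The pattern was picked out after the values were seen. Pool 1 exceeded pool 3 by 1.69-fold to 3.11-fold in wildtype and by 1.88-fold to 4.83-fold in knockout. The plot of signals by pool shows both facts, with pool symbols in the same order on both sides of most granin panels.

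**Figure D1:**
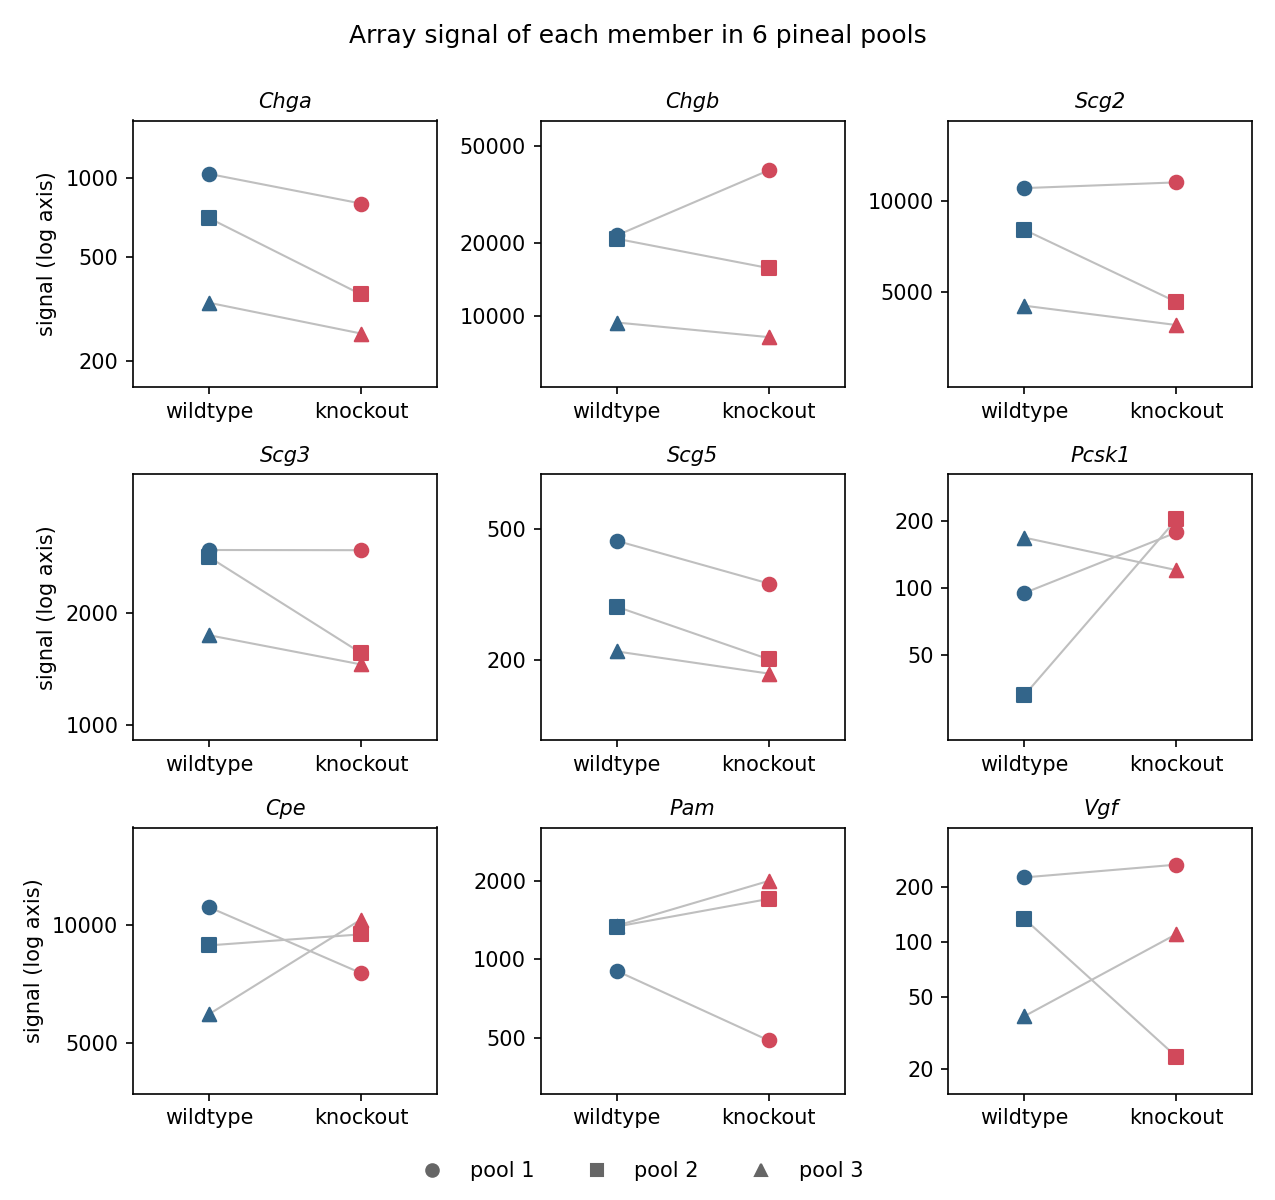
Deposited array signal on a log axis in each of 6 pools for the 9 genes, wildtype at left and knockout at right, with a symbol for each pool number and a line joining pools of the same number. The 5 granins Chga to Scg5 have pool 1 highest and pool 3 lowest in both genotypes, and the groups overlap in every panel.

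Chga encodes chromogranin A, the founding granin and a precursor of several peptides. Its signals were 1035, 701 and 333 in wildtype pools 1, 2 and 3 and 797, 358 and 254 in the knockout pools of the same numbers. Each knockout pool lay below its same-numbered wildtype pool, yet knockout pool 1 stood above 2 of the 3 wildtype pools. The means were 689.6 ± 351 and 469.9 ± 288 (SD, n = 3), a log2 difference of −0.53 (SE 0.48, 95% interval −1.63 to 0.56, limma adjusted p = 0.998). Within numbers 1, 2 and 3 the log2 difference was −0.36, −0.90 and −0.34.

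Chgb encodes chromogranin B, which aggregates with chromogranin A in the forming granule. Wildtype pools 1, 2 and 3 had Chgb signals of 21438, 20769.8 and 9424, and the knockout pools had 39642.5, 15746 and 8209. Knockout pool 1 was the highest of all 6 and knockout pool 3 the lowest, so that the knockout values enclosed the wildtype ones. The log2 difference was 0.10 (SE 0.58, 95% interval −1.21 to 1.40, limma adjusted p = 0.998), and it turned negative with quantile normalization (−0.30) and with each array centred on its median (−0.044). Without knockout pool 1 it was −0.50.

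The high Chgb signal of knockout pool 1 stood beside other high values in that pool. It had the raised ribosomal and respiratory chain transcripts given above. Cga, the common alpha subunit gene of pituitary hormones, had a signal of 1278 in knockout pool 1, while the other pools lay between 82.5 and 225. The pituitary markers Pomc and Tshb, which also passed the filter, had 371.5 and 269 in knockout pool 1. Their highest signals were 382.8 in wildtype pool 3 and 304.7 in knockout pool 2. The 8 measured pituitary markers summed to between 625 and 1103 in wildtype and between 995 and 2320 in knockout. The highest sum was that of knockout pool 1, and most of it came from Cga. Of these 8, the growth hormone gene Gh, the prolactin gene Prl, Fshb, Lhb and Pitx1 were below the filter on dim probe sets. The part of these transcripts in the Chgb signal was not tested.

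Scg2 encodes secretogranin II, the precursor of secretoneurin. Its signals were 11005, 8016 and 4504 in wildtype pools 1, 2 and 3 and 11493, 4633 and 3889 in knockout. The pools numbered 1 were level, and the difference lay mostly in number 2, where knockout had 0.578 times the wildtype signal. The log2 difference over all pools was −0.31 (SE 0.49, 95% interval −1.42 to 0.80).

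Scg3 encodes secretogranin III, which binds chromogranin A and cholesterol-rich granule membrane. It had signals of 2958, 2832 and 1746 in wildtype and 2955, 1564 and 1458 in knockout. The pools numbered 1 were nearly equal, with a log2 difference of −0.0017, against −0.84 in number 2 and −0.25 in number 3. The log2 difference over all pools was −0.37 (SE 0.37, 95% interval −1.21 to 0.48).

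Scg5 encodes 7B2, the chaperone that the convertase of Pcsk2 needs for its activation. Wildtype pools had 461.5, 290.3 and 212 and knockout pools 342, 201 and 181. Knockout was lower within each number, by 0.39, 0.46 and 0.19 on the log2 scale, and the difference over all pools was −0.35 (SE 0.35, 95% interval −1.14 to 0.44). A lower value within all 3 numbers was found for Chga, Scg3 and Scg5, which is 3 of 9, beside 15.4% of all genes. A higher value within all 3 was found for 0 of 9, beside 14.9%. Without knockout pool 1 the groups no longer overlapped for Scg3 and Scg5, lower in knockout, and for Pam, higher, while 28.2% of all genes then did not overlap.

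Vgf encodes a neurotrophin-induced granin that is cut into several peptides. Its signals were 226, 134 and 39.1 in wildtype and 266, 23.4 and 110.5 in knockout. Knockout held both the highest and the lowest of the 6 values, and the means were 133 ± 93.6 and 133 ± 123 (SD, n = 3). The log2 difference was −0.11 (SE 0.65), the largest SE of the 9, and within numbers it was 0.20, −1.48 and 0.94. Its mean over the 6 arrays was 133, close to the filter at a signal of 105, so the values are dim.

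**Figure D2:**
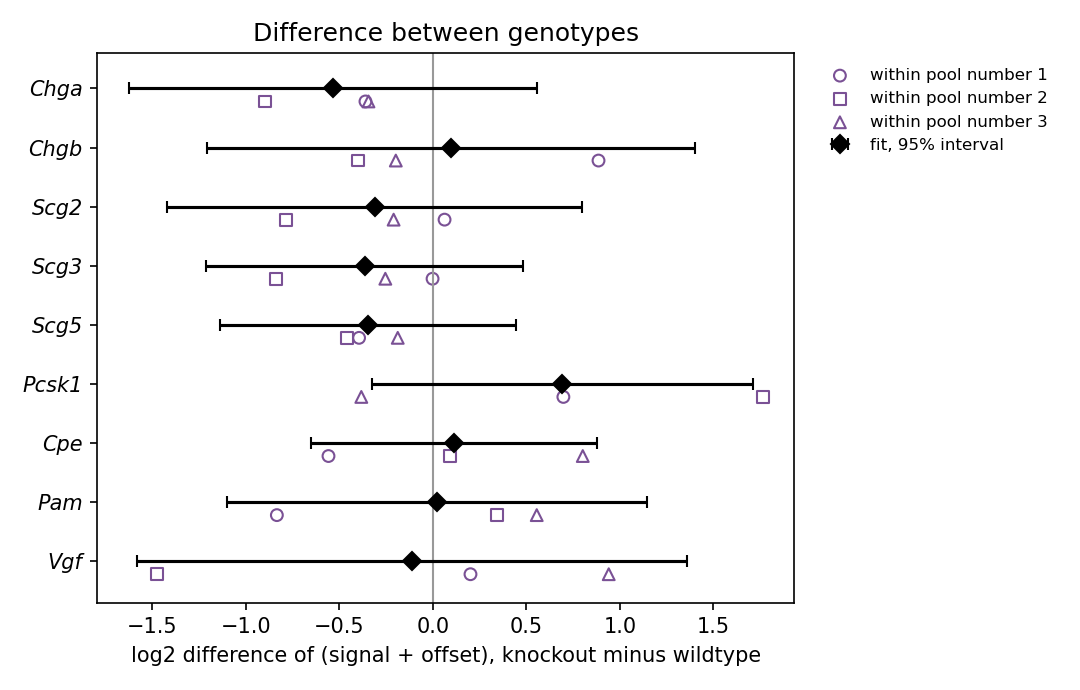
Log2 difference of signal plus offset, knockout minus wildtype, for the 9 genes: black diamonds with 95% intervals from the limma fit over 6 arrays, and open symbols for the difference within each pool number. Every interval includes 0, and the largest distance from 0 is that of Pcsk1 at 0.69.

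The promoters of 8 of the 10 genes could be read from RefSeq sequence of build GRCm38.p6, those of Cpe and Vgf being left out, with each window running from 250 bases before to 50 bases after the annotated start. The 6 stretches shown are chr12:102554841-102554940 (plus strand) of Chga, chr2:132781542-132781641 (plus strand) of Chgb, chr1:79440027-79440126 (minus strand) of Scg2, chr9:75684057-75684156 (minus strand) of Scg3, chr2:113829092-113829191 (minus strand) of Scg5 and chr13:75089757-75089856 (plus strand) of Pcsk1. Each is the 100 bases before the start on the gene's strand. They are the 5 granins that had the same order of pools and Pcsk1, the 1 other gene read that held a full cAMP response element, a sequence through which cAMP signalling acts on many pineal genes. Capitals mark the cAMP response element TGACGTCA, or its first 5 letters TGACG where these stand alone, and the Scg5 stretch holds neither.
Chga: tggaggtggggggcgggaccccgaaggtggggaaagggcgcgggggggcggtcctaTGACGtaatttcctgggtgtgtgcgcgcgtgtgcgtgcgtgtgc
Chgb: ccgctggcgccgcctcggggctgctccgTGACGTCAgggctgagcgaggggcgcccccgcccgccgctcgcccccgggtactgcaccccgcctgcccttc
Scg2: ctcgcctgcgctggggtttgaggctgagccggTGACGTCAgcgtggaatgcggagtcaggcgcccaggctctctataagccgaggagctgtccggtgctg
Scg3: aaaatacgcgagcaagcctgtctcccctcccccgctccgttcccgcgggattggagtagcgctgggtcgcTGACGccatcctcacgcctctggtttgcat
Scg5: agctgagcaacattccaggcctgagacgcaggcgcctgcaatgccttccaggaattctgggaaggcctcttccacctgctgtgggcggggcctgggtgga
Pcsk1: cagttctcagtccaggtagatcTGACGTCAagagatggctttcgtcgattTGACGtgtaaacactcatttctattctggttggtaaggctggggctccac

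The full element TGACGTCA, which reads the same on both strands, began 72 bases before the start in Chgb, 68 in Scg2 and 78 in Pcsk1. It was present in 3 of 8 of these genes and in 1.79% of the 32851 promoters of the table. The short form TGACG, searched on both strands and contained in the full element, was present in 7 of 8, all except Pam, and in 20.8% of all promoters. It was added to the search after the sequences were seen. Of the 5 granins with the shared order of pools, Chgb and Scg2 held the full element and Chga, Scg3 and Scg5 held only the short form.

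E-boxes, the hexamers that basic helix-loop-helix factors bind, were also counted on both strands. CAGCTG was present in Chga, Chgb, Pam and Pcsk2, 4 of 8, beside 16.3% of all promoters. CAGATG was present in 0 of 8, beside 17.2%. The general form CANNTG, which includes both, was present in 6 of 8, beside 72.3%. These are matches of letters in a short window and not measured sites.

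Among the enzymes, Pcsk1 encodes the convertase PC1/3, which makes the first cuts in many prohormones. It was dim, with signals of 95, 32.9 and 169 in wildtype pools 1, 2 and 3 and 178, 204 and 120.4 in knockout. The lowest signal of the 6 was that of wildtype pool 2, while wildtype pool 3 stood above knockout pool 3. The log2 difference was 0.69 (SE 0.45, 95% interval −0.32 to 1.71, limma adjusted p = 0.998), and it was 0.29 without wildtype pool 2. Within numbers it was 0.70, 1.76 and −0.38.

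Cpe encodes carboxypeptidase E, which removes the basic residues left by the convertases. Wildtype pools 1, 2 and 3 had signals of 11128, 8885 and 5922, and knockout pools had 7545, 9483 and 10349.7. Wildtype held both the highest and the lowest value. The log2 difference was 0.11 (SE 0.34, 95% interval −0.65 to 0.88), and it was −0.028 with each array centred on its median. The dimmer second probe set averaged 130.3 ± 38.0 in wildtype against 163 ± 78.8 (SD, n = 3), and its log2 difference was 0.21.

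Pam encodes the monooxygenase that amidates the carboxyl end of peptides. Its signals were 903.5, 1334 and 1344 in wildtype and 489.8, 1702 and 1994 in knockout. Pool 1 was lowest and pool 3 highest in both genotypes, the reverse of Chga, Chgb, Scg2, Scg3 and Scg5. That pattern was found in 7.69% of all genes. The log2 difference was 0.021 (SE 0.50, 95% interval −1.10 to 1.14), made of −0.83 in number 1 and 0.34 and 0.56 in numbers 2 and 3. With each array centred on its median it was −0.12.

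Over the 9 genes the lower bound of the 95% interval corresponds to a knockout level of 0.324 to 0.799 times that of wildtype, and the upper bound to 1.36 to 3.27 times. With pool number as a block the lower bounds ran from 0.385 to 0.729 times and the upper bounds from 1.01 to 3.58 times, the interval being narrower for 8 of the 9 and wider for Pcsk1. The median SE was 0.48 over the 9 and 0.34 over all genes tested, and with the block 0.31 and 0.28. For Chga, whose SE was 0.23 with the block, that interval ran from −1.08 to 0.015 on the log2 scale, against −1.63 to 0.56 without it (limma adjusted p = 0.768 with the block).

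The variation by pool number was examined in a fit that held genotype and number. At an adjusted p under 0.05 the number term called 0 of 9 and 0% of all genes in limma. At an unadjusted p under 0.05 it held 4 of the 9, Chga, Chgb, Scg2 and Pam, beside 17.2% of all genes. The labels do not say what the shared date marks, so it is named here only as a date. Of the pinealocyte markers, 7 of 14 had the order of the 5 granins, with pool 1 highest and pool 3 lowest in both genotypes. These were Tph1, Crx, Sag, Pde6b, Rom1, Ddc and Gnb3. The median over the 14 markers, relative to the mean of 6 arrays on the log2 scale, was 0.55, 0.17 and −0.15 in wildtype pools 1, 2 and 3 and 0.32, −0.22 and −0.70 in knockout.

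Over the 5 granins the same median was 0.71, 0.32 and −0.55 in wildtype and 0.60, −0.45 and −0.76 in knockout. Ribosomal and respiratory chain genes had 0.099, 0.10 and −0.36 in wildtype and 1.24, −0.33 and −0.70 in knockout. Astrocyte and radial glia markers, with 9 of 10 passing the filter, had −0.27, −0.090 and 0.047 in wildtype and 0.25, −0.055 and −0.060 in knockout. Choroid plexus markers, with 7 of 8 measured passing, had −0.97, −0.35 and 1.13 in wildtype and 1.04, 0.78 and −1.14 in knockout. In wildtype the choroid plexus values thus ran opposite to the 5 granins. In knockout both had pool 1 highest and pool 3 lowest. The part of these transcripts in the order of pools was not tested.

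**Figure D3:**
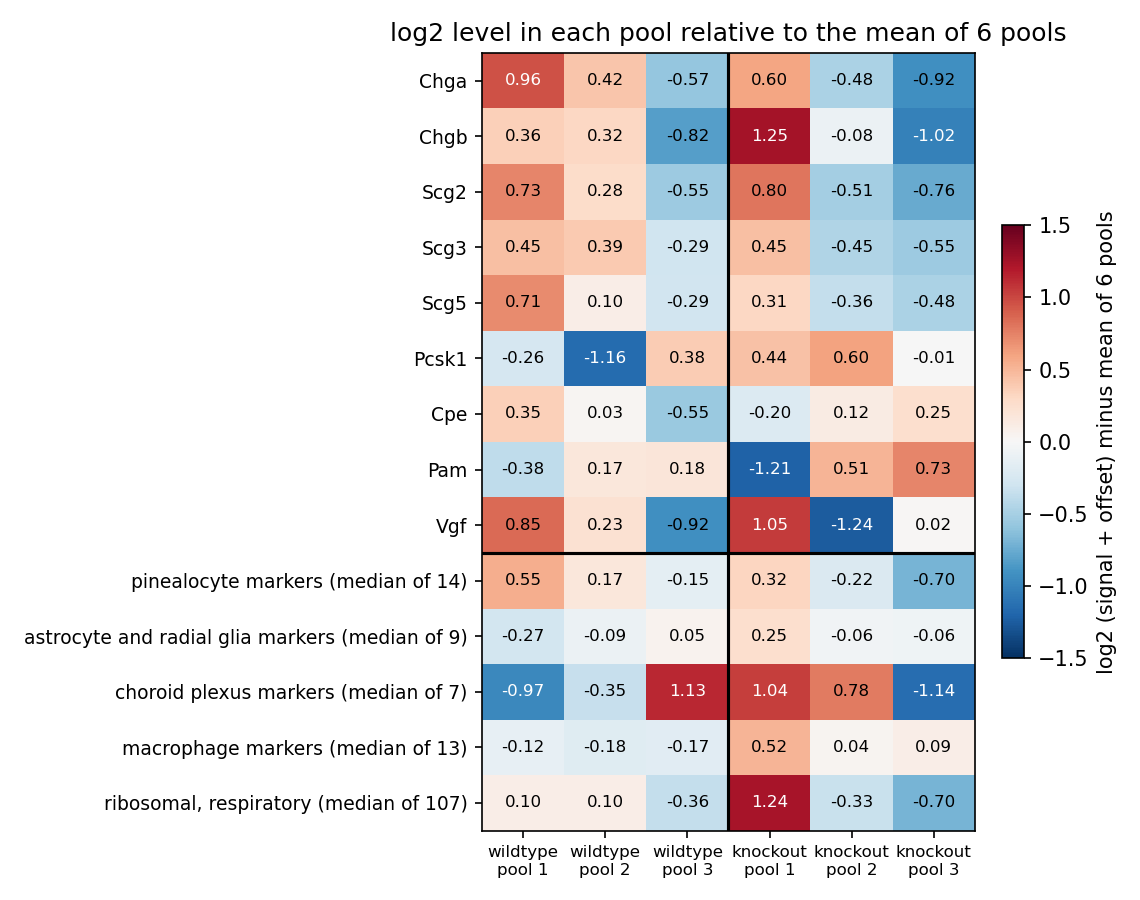
Log2 of signal plus offset in each pool minus the mean of the 6 pools, for the 9 genes above the line and as medians over marker lists below it. Red is above and blue below the mean. Chga to Scg5 share positive values in both pools numbered 1 and negative values in both numbered 3. The medians of the pinealocyte markers and of the ribosomal and respiratory chain genes do so too.

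Markers of other cells that hold granules were also measured. Of 6 sympathetic nerve and chromaffin markers measured, 4 passed the filter. The 6 together summed to between 760.4 and 1365 in wildtype and between 1031 and 1287 in knockout. Of 14 markers of brain neurons, 9 passed, and Tbr1, Neurod6, Slc17a7, Gpr151 and Slc32a1 did not pass. The 14 together had sums of 38373 to 48302 in wildtype and 36934 to 41859 in knockout. Most of each brain neuron sum came from Snap25 and Slc17a6. Snap25, a release gene that endocrine cells also express, lay between 19275 and 31379, and the glutamate transporter gene Slc17a6 between 10319 and 15199. Both had lower means in knockout. Of the 9 tested, 6 had higher means and the median was 0.061, which turned to −0.079 with each array centred on its median. Gad1, which encodes a GABA-forming enzyme, had signals of 142, 130 and 96.7 in wildtype and 341, 229 and 426 in knockout, without overlap, and a difference of 1.17 (SE 0.31, limma adjusted p = 0.998). Pou4f1, a sensory and habenular neuron factor, was at 818 in knockout pool 3 and between 74.1 and 162 elsewhere, with a difference of 1.11 (SE 0.61). The groups overlapped in both sums. The sums of 3 other lists did not overlap. Macrophage markers had sums of 9691 to 10597 in wildtype and 12765 to 17134 in knockout, and 12 of 13 tested had higher means in knockout. Meningeal fibroblast markers had sums of 107992 to 126784 against 138382 to 164410, with 11 of 12 higher (7 of 12 with each array centred on its median), and pericyte markers 12922 to 16066 against 16173 to 25363, with 9 of 9 tested higher (8 of 9 with centring). Median log2 differences of the macrophage, fibroblast and pericyte lists were 0.43, 0.30 and 0.42, and with centring 0.29, 0.16 and 0.28. With quantile normalization they were 0.39, 0.074 and 0.48. Endothelial markers overlapped, with a median of 0.18. Limma called 0 genes of the 4 lists, with 2 macrophage, 1 fibroblast, 0 pericyte and 1 endothelial marker at an unadjusted p under 0.05. Their part in the values of the 9 genes was not tested.

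Other genes of granule formation and release showed no call either. Of 25 such genes 24 were measured and 21 tested, 11 with lower and 10 with higher means, and limma called 0, with 1 at an unadjusted p under 0.05. Their median log2 difference was −0.015, and with each array centred on its median it was −0.16, with 15 of 21 lower. Eipr1, which acts with a tethering complex in granule formation, had signals of 226, 226 and 216 in wildtype and 19.0, 192.5 and 50.8 in knockout. The groups did not overlap, and the log2 difference was −1.30 (SE 0.50, limma adjusted p = 0.998). Cadps2, a priming factor for granule release, had 461 ± 165 and 282 ± 93.2 (SD, n = 3) and a difference of −0.63 (SE 0.33). Ica1, a granule-associated autoantigen gene, had a difference of 0.33 (SE 0.31). Slc18a1, a vesicular monoamine transporter gene, had 133 ± 8.30 and 175 ± 28.0 (SD, n = 3), without overlap, and a difference of 0.31 (SE 0.30).

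Convertases outside the regulated pathway and other carboxypeptidases had 11 of 14 members tested, 3 with lower and 8 with higher means, a median of 0.11 (−0.028 with each array centred on its median) and 0 called by limma, with 0 at an unadjusted p under 0.05. Pcsk7, a convertase of the trans-Golgi network, had signals of 269, 287.5 and 277 in wildtype and 355.5, 374 and 348 in knockout. The groups did not overlap, and the log2 difference was 0.33 (SE 0.23, limma adjusted p = 0.998). Furin, the widely expressed convertase of the constitutive pathway, had 745 ± 132 and 1011 ± 237 (SD, n = 3) and a difference of 0.41 (SE 0.29). Pcsk5, another convertase, had a difference of 0.42 (SE 0.33), of which number 3 held 1.20 and numbers 1 and 2 held 0.045 and 0.023. Cpxm1, a carboxypeptidase-like gene, had a difference of −0.26 (SE 0.32).

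Peptide precursors that these enzymes can process were often dim. Of 18 measured, 9 did not pass the filter, among them Npy, Sst, Gal, Vip and Trh. Of the 9 tested, 4 had lower and 5 higher means, with a median of 0.015 (−0.12 with centring and −0.052 with quantile normalization), and limma called 0, with 0 at an unadjusted p under 0.05. Nts, the neurotensin precursor, averaged 246 ± 76.4 in wildtype against 186 ± 132 (SD, n = 3), with a log2 difference of −0.46 (SE 0.43). Grp, of gastrin-releasing peptide, had a difference of 0.46 (SE 0.49), Nmb, of neuromedin B, 0.31 (SE 0.54), and Tac1, of substance P, 0.30 (SE 0.50). The Tac1 signal of knockout pool 1 was 674.5, while the other pools lay between 135 and 359.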

How the data were processed

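The values are the deposited table of Affymetrix probe set signals, a linear intensity for each of 45037 probe sets on 6 arrays. The software GCOS is named in the submitters' processing notes, and its algorithm and version are not given in the sources used here. The 2% trimmed means of the deposited intensity columns lay between 499.5 and 499.96, so arrays had been scaled before deposit. Signals were used as log2(signal + 38.6), the offset being the 20th percentile of all values, so differences of dim genes are understated. The platform annotation named 1 gene for 34945 probe sets, several for 932 and none for 9160. Probe sets whose mean log2 value fell in the lowest 40% (a signal under 105) were not tested, and where several named 1 gene the one with the highest mean stood for it. Signals of different probe sets were added up in the list sums, in which bright probe sets weigh most. A signal was otherwise not read as the level of 1 gene against another.

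The genotypes were compared with limma 3.58.1 in R 4.3.3 (lmFit, then eBayes with trend), two-sided, with Benjamini-Hochberg adjustment over all 12797 genes and a threshold of 0.05. Differences are knockout minus wildtype. An exact permutation test of 3 pools against 3 cannot go below p = 0.1, so none is given, and the number of arrays limits the precision.

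Pool numbers pair the samples, since the labels give same-numbered pools a shared date. Across genes, same-numbered pools deviated together from their group means, with correlations of 0.32, 0.25 and 0.36 for numbers 1, 2 and 3. Genes are not independent replicates. The number as a block was an alternative. The design text calls the pools separate biological samplings.

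Members and lists were chosen with earlier results of these data known. Named genes were Neurod1, every member, up to 4 tested genes with the smallest p of each of 3 lists (other granule genes, other proteases, peptide precursors), and the 5 genes nearest in profile to the members. Other genes named were chosen after their values were seen. Protein sequences were not used here.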

Additional observations from a re-analysis of the deposited data

How the results depend on the processing

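Of 19 alternatives, 18 called none of the 9 genes. With array weights in limma, 7.05 and 6.20 for the wildtype and knockout pools of number 2 against 0.204 to 0.541 for the others, the fit called 5 of the 9 (Chga, Scg2, Scg3, Pcsk1 and Vgf) and 2932 genes in all, and moved the median of the 9 to −0.47. This fit leans on 1 pair of pools. The 1 gene called, Neurod1, was no longer called with log2(signal + 1) or without both pools of number 1, 2 or 3, each of which called 0. Its log2 difference of −4.67 nevertheless became −4.87 and −4.80, −4.98 and −4.23. Neurod1 also lost its call when only wildtype pool 1, 2 or 3 or knockout pool 1 was left out. Its differences were then −4.63, −4.61, −4.76 and −4.84. Leaving out 1 pool gave 0 to 1 genes called, medians of the 9 from −0.59 to −0.022, and 0 to 3 of the 9 without overlap, beside 15.0% to 28.2% of all genes. Without both pools of number 1, 4 of the 9 did not overlap (Scg3, Scg5, Cpe and Pam, beside 36.5% of all genes), and without those of number 3, 1 did not (Pcsk1, beside 35.2%), with a median of −0.36. With the replicate number as a block 0 of the 9 were called, 1 gene was called in all, and 798 genes had an unadjusted p under 0.05, 6.24% against 3.34% without it. The block lowered the SE of Chga from 0.48 to 0.23 (limma adjusted p = 0.768, where all alternatives together ran from 0.0126 with array weights to 0.9999) and changed no call. Centring each array on its median moved the median of all genes from 0.028 to −0.11 and that of the 9 to −0.25. Pcsk1 and Vgf fell out when the dimmest 60% were left out, and Vgf with log2(signal + 1).

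Of 168 member differences under alternatives, 150 kept their direction and 18 reversed, all in Chgb, Cpe, Pam and Vgf. Chgb was −0.30 with quantile normalization, −0.044 with median centring, −0.36 with array weights and −0.30 without both pools numbered 1, and ran from −0.50 to 0.63 when 1 pool was left out. Cpe was −0.028 with median centring and −0.23 without number 3 (−0.14 to 0.32 leaving out 1 pool). Pam was −0.12 with median centring, −0.14 without number 2 and −0.25 without number 3 (−0.34 to 0.63). Vgf was 0.57 without number 2 (−0.67 to 0.48). Of other genes named, Grp was −0.22 without number 3 (−0.11 to 0.83 leaving out 1 pool), Tac1 −0.33 with array weights and −0.57 without number 1 (−0.25 to 0.61), and Nmb −0.85 with array weights and −0.22 without number 3 (−0.045 to 0.87). The cause was not tested. The order of pools held for the same 5 granins with quantile normalization, median centring, no filter and the mean of all probe sets, alternatives chosen after seeing the data, in which 11.0% to 18.0% of all genes had it.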

Other observations

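Among genes of the granule, Ptprn, which encodes the granule membrane protein IA-2, had the order of pools of the 5 granins over a wide range. Its signals were 441, 179 and 37.1 in wildtype pools 1, 2 and 3 and 319, 169 and 36.0 in knockout, so that the genotypes were close in numbers 2 and 3. Both signals of number 3 lay below the offset of 38.6. The width of the range and the closeness in number 3 thus rest on dim values. Pick1, Stx6, Rab3a and Rab3d had the same order, which makes 5 of 21 tested genes of granule formation and release, beside 14.8% of all genes tested. Pcsk1n, which encodes proSAAS, an inhibitor of the convertase of Pcsk1, was dim, with signals between 31.8 and 130 in the 6 pools. All of these were picked after seeing their values.

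The genes whose log2 profile over the 6 arrays lay nearest to the mean profile of the 9 members were Zfyve21, Smap1, 6330403K07Rik, Asb1 and Klhl22, with root mean square differences of 0.047 to 0.070 after each profile was centred on its own mean. They were picked as the smallest distances of all genes tested, and of the members Scg5 lay at 0.16, rank 307 of 12797, and Pam at 0.92, rank 12108. The 6 arrays are the only points behind this measure.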
